A study of Mus musculus with 6 samples.

Results

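The genes described here encode the collagen chains other than type IV. They were chosen by name: every probe set with exactly 1 gene symbol made of "Col", a type number, "a" and a chain number was taken, type IV was dropped, and the probe set brightest on average over the 6 libraries stood for its gene. This gave 36 genes, read by 70 probe sets, among 18193 genes with such a probe set. By the kind of assembly their proteins form, 11 were fibrillar, 5 beaded, 3 network-forming, 9 of the FACIT type (chains that sit on the surface of fibrils) and 8 of other types.

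RNA came from all the hind limb skeletal muscle of 6 mice aged 4 weeks, each isolated separately and read on 1 Affymetrix array. There were 3 wild type mice and 3 with a deficiency of the laminin alpha 2 chain (the deficient group), part of the laminin that ties the muscle fibre to its basement membrane. The labels give no allele, strain or sex, and no further treatment. The comparison asks how the deficient muscle differs from wild type. Lama2, the gene of that chain, read 428.7, 415.6 and 326.2 signal units in wild type replicates 1, 2 and 3 and 82, 31.1 and 140.4 in the deficient replicates, so that Lama2 fell in the group labelled deficient (log2 difference -2.17, limma adjusted p = 0.0209). That call was lost without wild type replicate 1 (adjusted p = 0.103), wild type replicate 2 (0.0833) or deficient replicate 1 (0.0588).

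Collagens are secreted proteins of 3 chains wound into a helix. Fibrillar types I and III form the tensile fibrils of the tissue around muscle fibres, and type V is built into those fibrils and helps set their width. Type VI makes beaded filaments next to the basement membrane, and loss of its chains causes muscle disease. Collagen XIX, a FACIT chain, is known from the embryo and from differentiating muscle cells, and the short collagen VIII is known from vessel walls and from the membrane beneath the corneal endothelium. In bulk tissue, more cells that make a collagen and more RNA per cell cannot be told apart.

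The 250 bases before the RefSeq start (build GRCm38.p6) are shown for the collagen gene with the largest measured difference, Col8a1, and for the brightest fibrillar genes that were not called and have a listed window, Col3a1 and Col1a2, so that the start regions of a gene that rose and of genes that did not pass can be read side by side. Capitals mark matches, on either strand, to CANNTG (the E-box, read by basic helix-loop-helix factors), CAGAC (the Smad element), CCAAT and TATAAA. Where matches touch or overlap they run together.
Col8a1 (chr16:57754738-57754987, minus strand): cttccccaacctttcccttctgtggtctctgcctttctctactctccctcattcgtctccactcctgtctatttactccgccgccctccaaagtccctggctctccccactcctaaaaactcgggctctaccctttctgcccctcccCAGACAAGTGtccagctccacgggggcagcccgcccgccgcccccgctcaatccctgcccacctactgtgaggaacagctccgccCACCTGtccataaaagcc
Col3a1 (chr1:45311288-45311537, plus strand): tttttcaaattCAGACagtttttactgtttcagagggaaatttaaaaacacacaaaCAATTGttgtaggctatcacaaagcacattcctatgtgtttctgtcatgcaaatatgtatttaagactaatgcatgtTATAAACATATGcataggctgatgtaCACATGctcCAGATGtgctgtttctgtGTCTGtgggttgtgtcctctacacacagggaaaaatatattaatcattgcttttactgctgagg
Col1a2 (chr6:4505368-4505617, plus strand): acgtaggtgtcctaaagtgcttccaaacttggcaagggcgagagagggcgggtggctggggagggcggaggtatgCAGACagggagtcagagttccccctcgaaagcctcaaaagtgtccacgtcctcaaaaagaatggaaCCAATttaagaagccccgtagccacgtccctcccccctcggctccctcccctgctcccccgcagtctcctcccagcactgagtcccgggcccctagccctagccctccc

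The Col8a1 window holds 2 E-box matches, and the one farther from the start overlaps a CAGAC match by 1 base. The Col3a1 window holds 4 E-box and 2 CAGAC matches and the TATAAA match, which touches an E-box match. Col1a2 has 1 CAGAC and 1 CCAAT match. Such matches are common: of 32851 windows of this length, 66.2% held CANNTG, 42.2% CAGAC, 33.8% CCAAT and 12.4% TATAAA. Among the 28 collagen genes with a window, 16 had a CANNTG match in at least 1 window, 14 a CAGAC, 10 a CCAAT and 5 a TATAAA. A match describes these letters only and shows no binding.

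In the deficient muscle, 2 collagen genes rose, Col8a1 and Col19a1, and none of the tested collagens fell. The most strongly read collagens of muscle, Col3a1, Col1a2 and Col1a1, did not pass the test in either direction. Chains of type V and type VI, and the FACIT chains Col14a1, Col16a1 and Col12a1, had positive differences that did not pass. Each difference is the deficient mean less the wild type mean of log2(signal + 16), a scale on which changes of dim genes look smaller than they are. A gene was called at a limma adjusted p under 0.05 over all genes tested. Of the 36 collagens, 31 passed the filter on dim genes and were tested, and 2 were called higher, 0 lower and 29 were not called. Over all 13110 genes tested, 352 (2.68%) were called, 1.24% higher and 1.44% lower. At an unadjusted p under 0.05, 9 collagens were higher and 1 lower, against 9.39% and 9.47% of all genes.

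**Figure D1:**
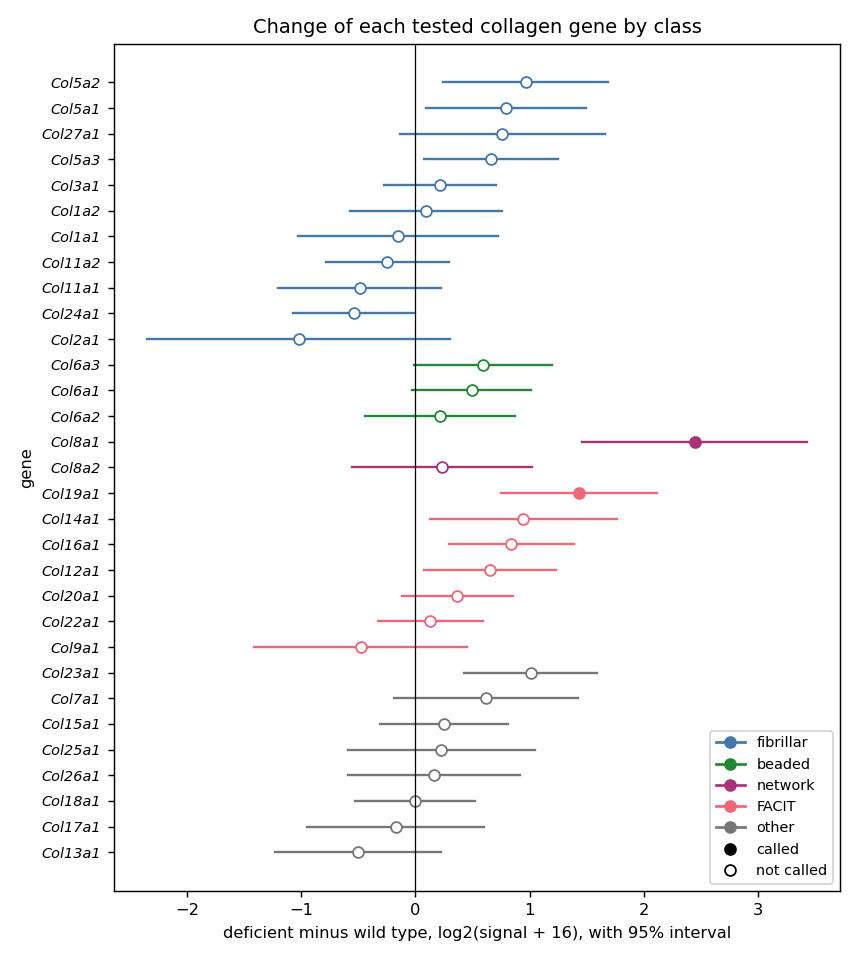
Each row is a tested collagen gene and the horizontal axis is deficient minus wild type in log2(signal + 16). Points are the fitted differences from 3 against 3 libraries, bars the 95% intervals, and filled points the genes that were called. The filled points are Col8a1 at 2.44 and Col19a1 at 1.43, and the intervals of Col3a1, Col1a2 and Col1a1 cross 0.

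The median difference of the 31 was 0.23, with a range from -1.02 for Col2a1 to 2.44 for Col8a1, beside a median of 0.02 over all genes. Positive differences were found for 22 of them, where 52.6% of all genes had one. By class the median was 0.09 for the 11 fibrillar, 0.49 for the 3 tested beaded, 1.34 for the 2 tested network, 0.65 for the 7 tested FACIT and 0.19 for the 8 other genes. Single libraries moved some of these: without wild type replicate 3 the fibrillar median was -0.30, the beaded 0.25 and that of the other genes 0.05, and without deficient replicate 2 the fibrillar was -0.08 and that of the other genes -0.006. Dropping wild type replicate 1 or 2 gave a fibrillar median of 0.26 or 0.32, and dropping deficient replicate 1 or 3 gave 0.18. In 7 collagens every deficient library lay above every wild type library, as in 12.3% of all genes. They were Col8a1, Col19a1, Col16a1, Col20a1, Col5a1, Col5a2 and Col23a1. The reverse held for 1 collagen, Col24a1, and for 12.4% of all genes. These counts describe the list, and no test was made of it.

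Col8a1 encodes the alpha 1 chain of collagen VIII, which forms hexagonal networks. Its signal was 196.5, 219.5 and 103.6 in wild type replicates 1, 2 and 3 and 1546, 1328.1 and 443.2 in the deficient replicates. All deficient libraries were above all wild type libraries, and replicate 3 was the lowest of its group on both sides. The mean rose from 173 ± 61.4 to 1106 ± 584 (SD, n = 3 per group), a ratio of 6.38 and a log2 difference of 2.44 (SE 0.44, limma adjusted p = 0.0245). The call was lost without wild type replicate 1 (adjusted p = 0.0916), wild type replicate 2 (0.0647), wild type replicate 3 (0.0633), deficient replicate 1 (0.0714) or deficient replicate 2 (0.105), and held without deficient replicate 3 (0.00134). The log2 difference stayed between 2.05 and 3.05 over all other settings tried for the gene as a whole, with adjusted p from 1.06e-04 to 0.193.

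The other probe sets of Col8a1 moved the same way. The second read 67.4, 109.7 and 56.1 in wild type and 588.6, 924 and 223.5 in deficient muscle, a difference of 2.50 that was also called when each probe set was tested on its own (limma adjusted p = 0.028 over the probe sets). The dimmest read 9.8, 26.8 and 0.9 against 151.7, 24.7 and 18.4, a difference of 1.22 that was not called (adjusted p = 0.31). Its groups overlapped, and only deficient replicate 1 stood clear of the wild type libraries. With a wild type mean of 12.5, below the filter signal of 13.9, it was tested only through its deficient values.

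Col8a2, the partner chain of collagen VIII, read 50.7, 46.3 and 42.4 in wild type and 90, 79.3 and 23.1 in deficient muscle. Deficient replicates 1 and 2 were above every wild type library and deficient replicate 3 was below all of them. The difference of 0.23 was not called (95% interval -0.55 to 1.02, limma adjusted p = 0.771). Col10a1, the network collagen of hypertrophic cartilage, was too dim to be tested, with 1.7, 35.9 and 3.6 in wild type and 2, 9.6 and 3.2 in deficient libraries.

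Among the FACIT chains, Col19a1 rose. It read 22.3, 45.5 and 27.7 in wild type replicates 1, 2 and 3 and 81.2, 89.7 and 180.5 in the deficient replicates. The groups did not overlap, and here deficient replicate 3 was the highest library. Its mean went from 31.8 ± 12.1 to 117 ± 55 (SD, n = 3 per group), a ratio of 3.68 and a log2 difference of 1.43 (SE 0.306, limma adjusted p = 0.0427). The call was lost without wild type replicate 1 (adjusted p = 0.158), wild type replicate 2 (0.0795), wild type replicate 3 (0.106), deficient replicate 1 (0.0616) or deficient replicate 2 (0.105). It was also lost with a pseudocount of 64 (adjusted p = 0.0557), median centring (0.0503), no filter (0.0774), the mean of the probe sets (0.0698) and a variance prior without an intensity trend (0.0644), in a range of 0.0132 to 0.385 over all settings for the gene as a whole.

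The other probe sets of Col19a1 differed from each other. The second read 52.7, 47.5 and 9.7 in wild type and 71.8, 103.3 and 120 in deficient muscle, without overlap, and its difference of 1.22 was not called (limma adjusted p = 0.132 over the probe sets). The third read 16.4, 14.5 and 20.8 against 21.6, 16.4 and 18.2, a difference of 0.07.

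**Figure D2:**
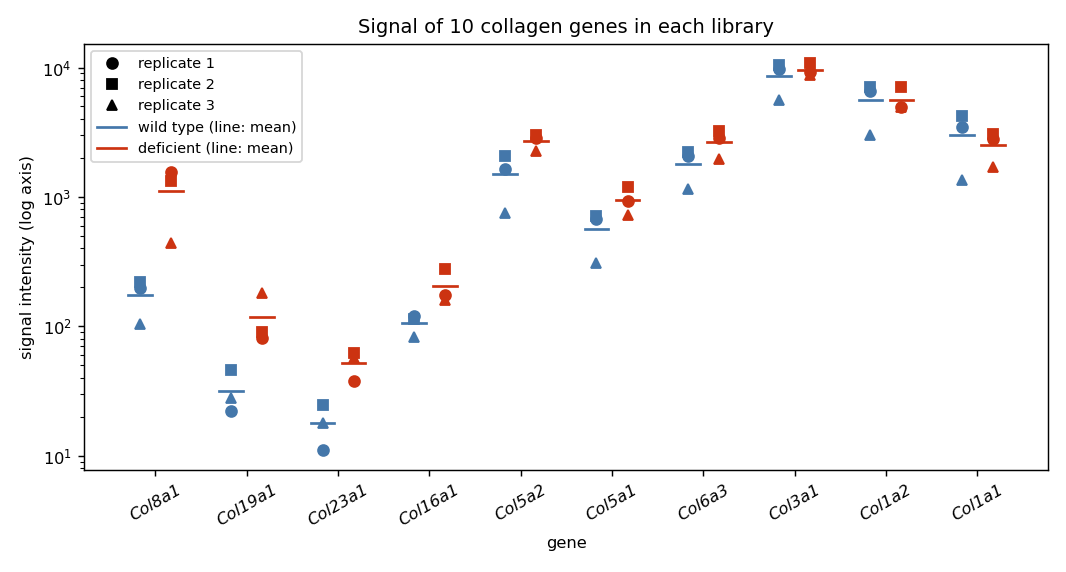
The vertical log axis is the signal intensity and each column pair is a collagen gene. Blue symbols are wild type and red symbols deficient libraries, the symbol shape gives the replicate number and the short lines are group means. Col8a1 and Col19a1 separate by group, while for Col1a1, Col1a2 and Col3a1 the groups overlap and wild type replicate 3 is the lowest library.

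The brightest FACIT chains were Col14a1, Col16a1 and Col12a1, which bind the surface of fibrils. Col14a1 read 254, 312.3 and 195.9 in wild type and 691.1, 692.9 and 250.2 in deficient muscle. Deficient replicates 1 and 2 were far above every wild type library, and deficient replicate 3 lay within the wild type range. Its difference was 0.94 (SE 0.364, limma adjusted p = 0.2), and without deficient replicate 3 it was 1.41 and called (adjusted p = 0.00867). Col16a1 read 119.7, 114.7 and 82.2 against 175.8, 278 and 160.8, without overlap, a difference of 0.84 that was not called (SE 0.244, adjusted p = 0.104). Col12a1 read 89.8, 127.2 and 68.1 against 197.6, 156.3 and 118.2, where only the lowest deficient library fell inside the wild type range, a difference of 0.65 (adjusted p = 0.208). The next brightest probe sets of Col14a1 and Col12a1 gave smaller differences, 0.50 and 0.11.

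The remaining tested FACIT genes were dimmer. Col20a1 read 29.4, 25.5 and 35.6 in wild type and 37.7, 46.4 and 46.2 in deficient muscle, without overlap, with a difference of 0.37 that was not called (limma adjusted p = 0.396). A further Col20a1 probe set gave -0.06. Col22a1, a chain of the muscle-tendon junction, lay between 64.6 and 83.2 in wild type and between 65.4 and 95 in deficient libraries (difference 0.13, adjusted p = 0.783). Col9a1, a cartilage chain, had a difference of -0.48 (adjusted p = 0.578). Col9a2 and Col9a3 were not tested, with no library above 13.4.

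Among the fibrillar genes 0 of 11 were called by limma, with 3 higher and 1 lower at an unadjusted p under 0.05. Col3a1, the chain of collagen III, read 9669.3, 10390.3 and 5572 in wild type and 9269.9, 10772.7 and 8755.9 in deficient muscle. Wild type replicate 3 was far below the other libraries, which overlapped. The difference was 0.21 (95% interval -0.28 to 0.70, limma adjusted p = 0.645), and the dimmer Col3a1 probe set gave 0.65.

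Type I collagen is made of the Col1a1 and Col1a2 chains. Col1a2 read 6565, 7115.7 and 3025.1 in wild type and 4943.1, 7020 and 4935.6 in deficient muscle, a difference of 0.09 (95% interval -0.58 to 0.76, limma adjusted p = 0.905). Col1a1 read 3476.1, 4208.4 and 1342.6 against 2777, 3051.5 and 1689.9, a difference of -0.15 (95% interval -1.03 to 0.72, adjusted p = 0.876). In both, the deficient libraries lay between wild type replicate 3 and wild type replicate 2. The other Col1a1 probe set moved the opposite way, by 0.28, with 1009.6, 615.9 and 640.1 against 1370.2, 702.7 and 740.7. The sign of Col1a1 therefore differed between its probe sets.

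The type V chains were not among the brightest of the class. They, Col24a1, Col27a1 and Col20a1 are given library by library outside the rule for named genes, chosen after their values were seen. Col5a2 read 1653.6, 2086 and 753.6 in wild type and 2857, 3030.2 and 2270.7 in deficient muscle, with every deficient library above every wild type library. Its difference of 0.96 was not called (SE 0.324, limma adjusted p = 0.149). Col5a1 did not overlap either, with 674.6, 705.3 and 310.2 against 937.2, 1186.1 and 721.4, a difference of 0.79 (SE 0.313, adjusted p = 0.209). Col5a3, a rarer chain, read 345.5, 263.4 and 195.7 against 403.9, 567.6 and 328.1, a difference of 0.66 (adjusted p = 0.209) with overlap of 1 library on each side. On the probe sets used, all 3 type V chains had differences between 0.66 and 0.96, with 95% intervals above 0, and none passed the adjusted test. The other probe sets differed: for Col5a1 they gave 0.39 and 0.004, the latter with 255.5, 246.6 and 128.6 against 288.7, 179.8 and 158.1 and overlapping groups, and for Col5a2 the other gave 1.17.

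The other fibrillar genes were dim. Col24a1 was the single collagen whose deficient libraries all lay below the wild type libraries, with 29.2, 24.1 and 23 against 11.6, 11.6 and 14.3. Its difference of -0.54 was not called (limma adjusted p = 0.264). Its deficient mean of 12.5 was below the filter signal of 13.9. It thus entered the test and the counts of lower collagens only through its wild type values. Col27a1 read 13.3, 56.3 and 60.5 against 79.7, 116.3 and 46, a difference of 0.76 (adjusted p = 0.342). The cartilage genes Col2a1, Col11a1 and Col11a2 had negative differences of -1.02, -0.49 and -0.24, none of them called. Their values were highest in wild type replicate 2, at 142.4, 184.2 and 52.2, and the groups overlapped. In that library the bone and cartilage markers also had their highest sums, as given with the markers.

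The beaded collagen VI genes had positive differences and 0 of 3 tested were called by limma, with 0 at an unadjusted p under 0.05. Col6a3 read 2055.8, 2203 and 1154.2 in wild type and 2843.8, 3236 and 1956.9 in deficient muscle, a difference of 0.59 (95% interval -0.01 to 1.19, limma adjusted p = 0.277). Col6a1 read 1411.4, 1423.3 and 843.5 against 1822.5, 1919.3 and 1365.1, a difference of 0.49 (95% interval -0.03 to 1.01, adjusted p = 0.29). Col6a2 read 1582.2, 1603.7 and 779.7 against 1572.4, 1804.6 and 1102.9, a difference of 0.22 (95% interval -0.44 to 0.87, adjusted p = 0.739), and its dimmer probe set gave 0.39. In all 3, replicate 3 was the lowest library of its group and only part of the deficient libraries stood above wild type. Col6a4 and Col6a5 were too dim to be tested, with no library above 44.9.

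Pairs of chains were compared within each library: 5 pairs of chains of 1 collagen type, and Col3a1 against Col1a1, which belong to different types. The question was whether the difference between their log2 values differed between the groups. Of 6 pairs, Col6a3 against Col6a2 was the one whose libraries separated. Relative to the wild type mean, that within-library difference was -0.09, -0.01 and 0.09 in wild type and 0.39, 0.38 and 0.36 in deficient replicates 1, 2 and 3. On the probe sets used, Col6a3 thus changed by 0.37 more than Col6a2 (exact two-sided permutation p = 0.1, the smallest that 3 against 3 allows, and 0.4 adjusted over the 6 pairs). For Col6a1 against Col6a2 the value was 0.27 (exact permutation p = 0.2), for Col5a1 against Col5a2 -0.17 (0.2), for Col1a1 against Col1a2 -0.24 (0.4), for Col3a1 against Col1a1 0.37 (0.3) and for Col6a3 against Col6a1 0.10 (0.4). Such a value shows unequal change of the probe sets, and no level of a chain against another. It also depends on the probe set. The dimmer Col6a2 probe set changed by 0.39, nearer to Col6a3 and Col6a1 than the 0.22 of the one used. The other Col1a1 probe set changed by 0.28, against -0.15. The pairs were not computed with these.

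The other types include transmembrane collagens, the anchoring fibril collagen and the multiplexins of basement membrane zones. By limma 0 of 8 were called, with 1 higher at an unadjusted p under 0.05. Col23a1, a transmembrane chain, read 11, 24.7 and 17.9 in wild type and 37.6, 61.8 and 56.9 in deficient muscle, without overlap. Its difference was 1.01 (SE 0.259, limma adjusted p = 0.0735), the smallest adjusted p of the collagens that were not called. The other probe set that passed the filter read 31.7, 10.5 and 24 against 26.6, 34 and 36.4. Its groups overlapped, and its difference of 0.38 was not called (limma adjusted p = 0.527 over the probe sets). The dimmest, below the filter and with a wild type mean of 4.8, read 0.8, 2.5 and 11.1 against 20.7, 19.7 and 25.5, without overlap.

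Col15a1, a multiplexin of the muscle and vessel basement membrane zone, read 269, 203 and 150 in wild type and 233.2, 311.4 and 197.1 in deficient muscle (difference 0.25, 95% interval -0.31 to 0.81, limma adjusted p = 0.639). Col18a1, the multiplexin from which endostatin is cut, read 116.2, 114.1 and 98 against 143.1, 117.3 and 75.7. Its difference was close to 0 at -0.004 (95% interval -0.53 to 0.52, adjusted p = 0.995), and its other probe set gave 0.24. Col7a1, of the anchoring fibrils of skin, read 53.3, 17.1 and 31.7 against 30.3, 65.8 and 88.5 (difference 0.62, adjusted p = 0.387). Col13a1, a transmembrane chain of the neuromuscular junction, had a difference of -0.50 (adjusted p = 0.44), and Col17a1, Col25a1 and Col26a1 had -0.17, 0.23 and 0.16, with no library above 45. The deficient mean of Col13a1, 10.8, was below the filter signal of 13.9, so like Col24a1 it was tested only through its wild type values. The same held for Col17a1 on the log2 scale of the filter.

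Over the 18 tested genes with a further probe set that passed the filter, 20 of 24 such probe sets moved the same way as the one used. That count includes a probe set of Col8a1, of Col1a2 and of Col25a1 with wild type means of 12.5, 12.6 and 11.1. These means are below the filter signal of 13.9, so the 3 passed only through their deficient values, which favours a positive difference. The 4 that moved the opposite way belonged to Col18a1, Col1a1, Col20a1 and Col22a1, all with differences under 0.4 in size. Of 55 collagen probe sets tested on their own, 2 were called, both of Col8a1.

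The libraries differed in a way that the groups do not explain. The Y-linked gene Eif2s3y read 414.6 to 573.7 in replicates 1 and 2 of each group and 10.7 and 9.1 in replicate 3 of wild type and deficient muscle. Many collagens followed that split. Wild type replicate 3 was the lowest wild type library for 23 of the 31 tested collagens, against 35.3% of all genes, and deficient replicate 3 the lowest deficient library for 19, against 40.2%. Replicates 1 and 2 lay above replicate 3 by a median of 0.49 in wild type and 0.43 in deficient muscle over the collagens, and by -0.01 and 0.03 over all genes. Because the split rests on 1 library per group, Y-linked transcripts and any other property of these libraries cannot be told apart.

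**Figure D3:**
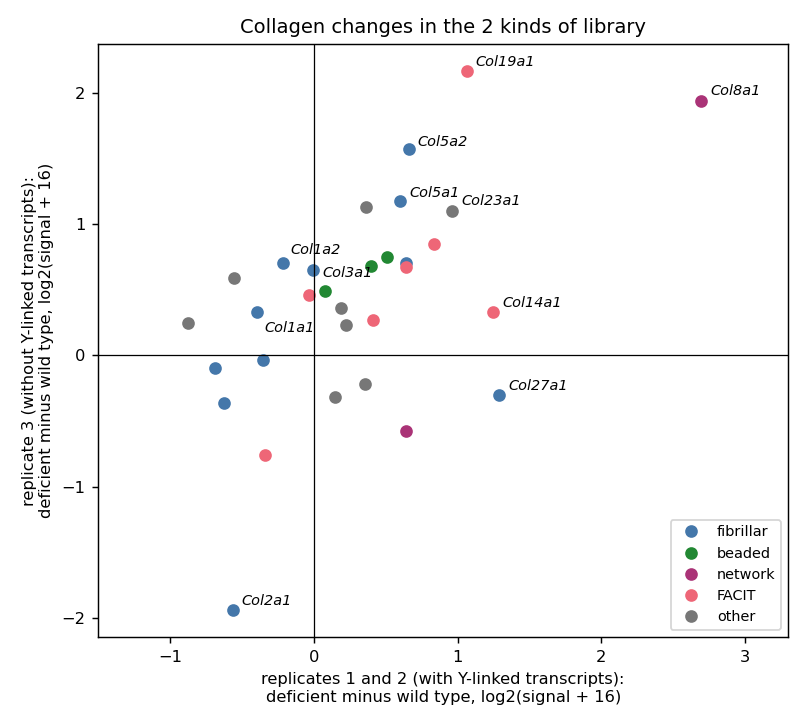
The horizontal axis is deficient minus wild type in log2(signal + 16) between the means of replicates 1 and 2, and the vertical axis the same between the single libraries of replicate 3; each point is a tested collagen, coloured by class. Col8a1, Col19a1, Col5a2 and Col5a1 lie above 0 on both axes, whereas Col1a1 and Col1a2 lie below 0 on the horizontal and above 0 on the vertical axis.

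The comparison was repeated within each kind of library. Col8a1 differed by 2.70 between replicates 1 and 2 and by 1.94 between the replicates 3, and Col19a1 by 1.06 and 2.17. Col5a2 gave 0.66 and 1.57, Col5a1 0.60 and 1.18, Col6a3 0.51 and 0.75, Col16a1 0.83 and 0.85, and Col23a1 0.96 and 1.10. These genes kept 1 direction in both kinds of library. For all of them but Col6a3 this had to be so, because every deficient library lay above every wild type library. The split is therefore no further support for their direction. The type I chains changed direction: Col1a2 gave -0.21 and 0.70 and Col1a1 -0.39 and 0.33, and Col3a1 gave -0.004 and 0.65. In all, 16 of 31 collagens were positive in both kinds of library, against 33.5% of all genes.

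With a block for whether a library held Y-linked transcripts, 8 collagens were called higher and 0 lower by limma, where 4.11% of all genes were called higher and 4.58% lower. They were Col8a1 (adjusted p = 1.06e-04), Col19a1 (0.0132), Col5a2 (0.0142), Col5a1 (0.0211), Col14a1 (0.0221), Col6a3 (0.0244), Col16a1 (0.0298) and Col23a1 (0.0439). In the 4 libraries with Y-linked transcripts alone, a fit chosen after seeing the data, 2 collagens were called higher, Col8a1 (adjusted p = 1.16e-04) and Col14a1 (0.00459), where 3.26% of all genes were. Col19a1 was not called there (adjusted p = 0.0634). The calls of Col5a2, Col5a1, Col14a1, Col6a3, Col16a1 and Col23a1 thus depend on whether this split is in the model.

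The genes that make, bind and break down collagen are given from lists of 5 roles. Of 17 tested genes that fold and modify the chains, 1 rose, 0 fell and 16 did not pass (median 0.22). Plod2, a lysyl hydroxylase that sets the kind of cross-link, read 102.4, 137.5 and 77.6 in wild type and 273.8, 244.2 and 191.9 in deficient muscle, without overlap (difference 1.07, limma adjusted p = 0.0463). Serpinh1, the chaperone of procollagen in the endoplasmic reticulum, which was chosen after its values were seen, read 1246.4, 1505.9 and 489.6 against 1467.8, 1050.4 and 349.5 (difference -0.25, adjusted p = 0.846) and was low in both replicates 3. Of 6 tested genes of export and propeptide removal, 0 were called by limma, with 1 higher and 1 lower at an unadjusted p under 0.05 (median -0.01). The members with the smallest p were Pcolce2, an enhancer of propeptide removal (difference -1.04, adjusted p = 0.0859), and Bmp1, the proteinase that cuts the C-propeptide (0.44, adjusted p = 0.25).

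Cross-linking is done by the lysyl oxidases. Of their 4 tested genes 1 rose, 0 fell and 3 did not pass (median 0.86). Lox read 631.6, 621.3 and 290.4 in wild type and 1888, 1091 and 1175.3 in deficient muscle, without overlap, a difference of 1.44 (limma adjusted p = 0.0468). Of 10 tested collagen receptors 0 were called by limma, with 1 higher and 0 lower at an unadjusted p under 0.05 (median 0.18). Antxr1, a receptor that binds collagen VI, had a difference of 0.87 (adjusted p = 0.0816), and Cspg4, a proteoglycan of pericytes that also binds it, 0.47 (adjusted p = 0.327).

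Among 8 tested genes of collagen breakdown and uptake 3 rose, 0 fell and 5 did not pass (median 0.86). Mrc2, the receptor that takes up cleaved collagen, read 94.2, 89.6 and 64.7 in wild type and 219.9, 223.7 and 139.6 in deficient muscle, without overlap (difference 1.08, limma adjusted p = 0.0453). Mmp14, the membrane-bound collagenase, read 241.7, 255.2 and 99 against 587.2, 590.3 and 613.9 (difference 1.61, adjusted p = 0.029). Mmp2, the gelatinase it activates, read 848.9, 809.9 and 536.3 against 1524.6, 1815.7 and 1701 (difference 1.21, adjusted p = 0.0195). The groups did not overlap for either. The calls of Plod2, Lox and Mrc2 were lost without each of the 6 libraries in turn except deficient replicate 3, with adjusted p from 0.0748 to 0.16 for Plod2, 0.0831 to 0.115 for Lox and 0.115 to 0.169 for Mrc2. Mmp14 lost its call without wild type replicate 1 (0.0794), wild type replicate 2 (0.0566), deficient replicate 1 (0.0771) and deficient replicate 2 (0.106), and Mmp2 without wild type replicate 1 (0.0594), wild type replicate 2 (0.0616) and deficient replicate 2 (0.0866).

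**Figure D4:**
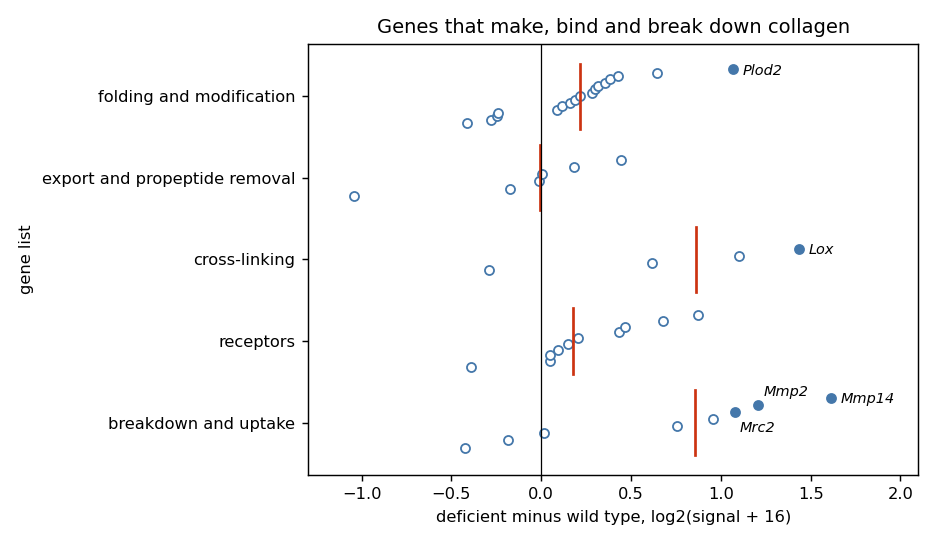
Each point is a tested gene of a list and the horizontal axis is deficient minus wild type in log2(signal + 16). Filled, named points were called and red lines are list medians. The called genes, Plod2, Lox, Mmp2, Mmp14 and Mrc2, all lie above 1, and the medians of the cross-linking and breakdown lists are at 0.86.

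Markers of other cell types are given by their counts and summed levels, and no test of a list was made. Each sum covers every listed gene with a probe set, also those too dim to be tested. Fibroblast markers (10 of 10 tested, 0 called by limma, 3 higher and 0 lower at an unadjusted p under 0.05, median 0.28) summed to 11395 to 13778 signal units in wild type and 12509 to 18356 in deficient libraries. Deficient replicate 3 was the lowest deficient library for 9 of the 10. Their median difference was 0.49 between replicates 1 and 2 and -0.27 between the replicates 3. Tenocyte markers (7 tested, 1 called higher, Thbs4, with 2 higher and 1 lower at that unadjusted p) had a median of -0.16, with 4 of 7 negative, and summed to 3066 to 4372 and 3230 to 7181, with deficient replicate 3 the lowest deficient library. Macrophage markers (5 tested, 1 called higher, Mpeg1) were all higher at that unadjusted p, with a median of 1.16 and 4 called with the block for Y-linked transcripts, and summed to 2118 to 3093 and 3086 to 8771. Their part in the collagen values was not tested.

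Epidermis and hair markers (7 of 8 tested, 1 called lower by limma, Tchh, and 4 lower at an unadjusted p under 0.05, median -0.93) summed to 1479, 911 and 255 in wild type replicates 1, 2 and 3 and to 202 to 314 in deficient libraries. Bone markers (5 tested, 0 called by limma, 1 lower at an unadjusted p under 0.05) summed to 240, 489 and 199 in wild type replicates 1, 2 and 3 and to 156 to 307 in deficient libraries. Cartilage markers (3 of 6 tested, 0 called, 1 higher and 1 lower at that unadjusted p) summed to 72.8, 135 and 83.7 and to 83.2 to 98.2. The 3 cartilage markers left untested had no library above 19.8, so these sums are of dim genes. Wild type replicates 1 and 2 were higher than replicate 3 in skin and hair markers and in the used Col1a1 and Col1a2 probe sets. Wild type replicate 3 was also lowest in the endothelial sum, at 984 against 1633 and 1399. The same held for the fibroblast, tenocyte, macrophage, bone, and smooth muscle and pericyte sums. It did not hold for the cartilage, Schwann cell, adipocyte and muscle fibre sums. In deficient replicates 1, 2 and 3 the skin and hair sums were 314, 202 and 204. Deficient replicate 3 was lowest for 2 of the 7 tested skin and hair markers and for 19 of the 31 tested collagens. Wild type replicate 2, the library highest in Col2a1, was highest in bone and cartilage markers. Tchh lay below the filter signal of 13.9 in every deficient library, so it was tested, and called, only through its wild type values. No marker was at 0, but Krt27 and Tchh were under 4 in every deficient library. Their part in the collagen values was not tested, and without wild type replicates 1 and 2 together, which leaves a single wild type library assumed to vary like the deficient ones, 0 collagens were called by limma, with log2 differences of 3.05 for Col8a1 and 1.53 for Col19a1. Endothelial (5 tested), smooth muscle and pericyte (4), Schwann cell (2) and adipocyte (2) markers had 0 called by limma, with 1, 1, 0 and 1 lower and 0, 1, 0 and 0 higher at an unadjusted p under 0.05. The tissue label was met by the muscle fibre markers Acta1, Ckm, Myh4, Mb and Tnnt3, which read between 6769.9 and 15099.6 in all libraries, with 0 of 5 called and 2 lower at an unadjusted p under 0.05.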

How the data were processed

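The authors deposited 1 linear signal intensity for each probe set and mouse, 1 array per mouse. No source used here names the algorithm. Each array's mean without the lowest and highest 2% lay at 100, so the authors' values had been scaled to a common level. Array medians lay between 20 and 26.1, and on the log2(signal + 16) scale differed by at most 0.226, so no further normalization was applied. Precision is set by the number of arrays.

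Of 45101 probe sets, 64 were controls, 34945 had 1 symbol in the platform annotation, 932 several and 9160 none. All 36 collagen genes matched RefSeq by Entrez identifier. Genes whose brightest probe set had a mean log2 value below the 40th percentile of all probe sets (a signal of 13.9) were left out. Groups, from the sample titles, were compared in R 4.3.3 by limma 3.58.1, fitting all 6 libraries without a block. Its moderated test was two-sided, the variance prior followed mean intensity, and p-values were adjusted over 13110 genes (Benjamini-Hochberg). On 20 simulated data sets, with 200 of 13110 genes changed, it called 47.8% of the genes given a 2-fold change of signal + 16. For a 4-fold change of signal + 16 it called 98.2%. Of its calls, 6.35% were of unchanged genes, above the nominal 5%. In dim genes such a change of signal + 16 is a larger change of the signal itself. The called shares are therefore too high for 2-fold and 4-fold changes in the signal of dim genes. Figures used matplotlib 3.10.9 in Python 3.11.15.

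The members, classes and lists were chosen with earlier results of these data known. Named were Lama2, all collagens (library values for called genes, the 3 brightest of each class and non-overlapping genes with a log2 difference of at least 1), and up to 4 called genes of each collagen list or, with none, the 2 with the smallest p. Serpinh1 was named after their values were seen. Alternatives were other pseudocounts, scalings, filters, probe set rules, priors, blocks and libraries left out.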

Additional observations from a re-analysis of the deposited data

How the results depend on the processing

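Of 604 alternative values of single genes, 538 kept their direction and their side of the threshold, 21 lost the call, 14 gained it and 31 changed sign; the cause of these changes was not tested except where named. Without the filter more genes were tested: 216 of all genes and 1 collagen were called, with 0 FACIT, 0 folding and 0 cross-linking genes, and the beaded, network and FACIT medians were 0.22, 0.23 and 0.37. Without an intensity trend 167 genes and 1 collagen were called, with 0 FACIT, 0 folding, 0 cross-linking and 1 breakdown gene. Median centring left 1 collagen, 0 FACIT, 0 folding, 0 cross-linking and 1 breakdown gene, and moved the higher calls among all genes from 163 of 352 to 98 of 245. The mean of the probe sets left 1 collagen, 0 FACIT, 0 folding and 0 cross-linking genes and a FACIT median of 0.38, and turned Col18a1 to 0.12, Col1a1 to 0.062 and Col22a1 to -0.030. A pseudocount of 64 left 1 collagen and 0 FACIT genes and turned Col18a1 to 0.0043, a pseudocount of 1 left 0 cross-linking genes, and quantile normalization 0 folding genes. Other probe sets turned Col18a1 to 0.24, Col1a1 to 0.28, Col20a1 to -0.056 and Col22a1 to -0.29.

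No label says that a replicate number is shared between the groups, so the numbers were not taken as pairs. The correlation of same-numbered libraries' deviations from their group means was positive, at 0.15, 0.07 and 0.30 for replicates 1, 2 and 3, and does not settle this. With the replicate number as a block 858 genes were called, and with Y-linked transcripts as a block 1139. Either block called 8 collagens higher (2 fibrillar, 1 beaded, 3 FACIT and 1 other, beside Col8a1), 1 export gene lower, and 2 cross-linking, 1 receptor and 5 breakdown genes higher. The libraries with Y-linked transcripts alone, a setting chosen after seeing the data, called 823 genes, 2 of them cross-linking and 1 receptor, and turned Col18a1 to 0.15, Col1a2 to -0.21, Col22a1 to -0.035 and Col3a1 to -0.0043.

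Without wild type replicates 1 and 2 together 19 genes were called, with 0 collagens, so 0 network and 0 FACIT, 0 folding, 0 cross-linking and 1 breakdown gene. The fibrillar, beaded and FACIT medians were then 0.78, 0.98 and 1.02, and Col11a1 (0.11), Col17a1 (0.14), Col18a1 (0.13), Col1a1 (0.85) and Col26a1 (-0.20) changed sign. Leaving out each library in turn gave 64 to 676 called genes, 0 to 3 collagens, 0 to 1 network, 0 to 2 FACIT, 0 to 1 folding, 0 to 2 cross-linking, 0 to 1 receptor and 0 to 3 breakdown genes, and medians from -0.30 to 0.32 (fibrillar), 0.25 to 0.64 (beaded), 1.04 to 1.84 (network), 0.47 to 0.85 (FACIT) and -0.006 to 0.29 (other). Signs changed for Col17a1 (-0.40 to 0.16), Col18a1 (-0.18 to 0.22), Col1a1 (-0.65 to 0.17), Col1a2 (-0.30 to 0.32), Col25a1 (-0.16 to 0.43), Col26a1 (-0.17 to 0.35), Col3a1 (-0.068 to 0.38), Col6a2 (-0.12 to 0.42) and Col8a2 (-0.031 to 0.69). With 3 arrays per group, genes near the background signal, such as the 5 collagens left untested, gave no usable comparison.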
